A study of Mus musculus with 3 samples.

Results

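The genes described here encode subunits of the mitochondrial oxidative phosphorylation machinery in CT26.WT cells, a mouse colon carcinoma cell line. They were chosen by gene symbol alone, as probe sets that the platform annotation gives a single symbol of the Ndufa, Ndufb, Ndufc, Ndufs, Ndufv, Sdh, Uqcr, Cox4 to Cox8 or Atp5 series. This gave 164 probe sets of 81 genes, out of 18193 genes with a single symbol on the array. By symbol, 35 genes belong to complex I, 4 to complex II, 8 to complex III, 17 to complex IV and 17 to complex V.

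The study compared cells given recombinant mouse S100a8 protein, cells given recombinant mouse S100a9 protein and control cells. All 3 cultures were CT26.WT, and per the labels' protocol they were kept without serum for 12 h before the proteins were added at 4 µg/ml for 24 h. The agent of the control is labelled in 2 ways, as bovine serum albumin in its title and as saline in its description and in the series design, and no exposure time is given for it. RNA of each culture was measured on 1 Affymetrix Mouse Genome 430 2.0 array, an array on which groups of short oligonucleotides (probe sets) report the abundance of transcripts, so each group held 1 array.

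Oxidative phosphorylation couples the oxidation of NADH and succinate to the synthesis of ATP at the inner mitochondrial membrane. Complexes I and II pass electrons to ubiquinone, complex III hands them on to cytochrome c, complex IV reduces oxygen, and complexes I, III and IV pump protons that drive the ATP synthase, complex V. Most subunits are encoded in the nucleus and imported, and a small set is encoded by mitochondrial DNA. Tumour cell lines such as colon carcinoma lines generally keep these complexes while also fermenting glucose. S100a8 and S100a9 are calcium-binding proteins that myeloid cells release during inflammation.

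Nuclear genes of oxidative phosphorylation differed little between the 3 arrays, and most of the small differences lay above the control at the scale of the deposited signals. Against control, the median log2 ratio of signals over the 76 genes that could be compared was 0.08 with S100a8 and 0.07 with S100a9, which are folds of 1.06 and 1.05. With S100a8, 54 of the 76 genes were above control, and with S100a9, 61 of 76. Over all 11138 genes compared, the medians were 0.012 and 0.0045, and 52.5% and 51.2% of genes were above control. These directions depend on the scale: both member medians were negative, −0.05 and −0.21, when the arrays were instead centred on the poly-A spike-in controls. The same control array serves both comparisons, so they are not independent.

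The median of all signals, 76.0, served as a floor, and only genes whose most intense probe set averaged above it over the arrays were compared. Signals below the floor were raised to it. The 5 genes that did not reach it were Ndufb4, Cox4i2, Cox6b2, Cox7b2 and Cox8b, and this left 34 genes of complex I, 4 of complex II, 8 of complex III, 13 of complex IV and 17 of complex V. Of the 76 genes compared, 69 lay in the brightest quartile of all compared genes. The probe set that represents the gene ends in _a_at in 22 cases, which marks a match to several transcripts of 1 gene, and in _s_at in 12 or _x_at in 8, which mark probes that can match related genes. In the _s_at and _x_at cases signals of near-identical genes or pseudogenes cannot be told apart.

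No test is possible on single arrays, and 2 technical measures stand in for an error. Against control, the 18 hybridisation spike-ins, which enter after labelling, varied with an SD of 0.04 in the S100a8 comparison and 0.08 in the S100a9 comparison, around medians of 0.019 and −0.013. The 24 poly-A spike-ins, which go through the labelling with the RNA, had medians of 0.12 (SD 0.12) and 0.28 (SD 0.12). Different probe sets of the same member gene gave log2 ratios that varied with a pooled SD of 0.14 for S100a8 and 0.11 for S100a9 over 45 genes. This spread between probe sets bears on single genes and not on medians over many. Neither measure contains the spread between cultures, which these arrays cannot show.

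The cell identity was checked against marker lists. Of 7 epithelial markers only Krt18 and Epcam were above the floor on all arrays, while Krt8, Krt19, Cdh1, Cdh17 and Vil1 were below it, and all 6 fibroblast markers were above it. The summed signals of the fibroblast markers were 10769 after S100a8, 11818 after S100a9 and 12009.5 in control cells, sums that rest largely on Col1a2. Those of the epithelial markers were 1355, 1511 and 1718, and rest largely on Krt18. Krt18 had log2 ratios against control of −0.49 with S100a8 and −0.23 with S100a9, and Epcam had 0.16 and −0.24. Of 5 immune markers on the array, 4 were above the floor on all arrays, with sums of 1783, 1560 and 1393, and Ptprc, the pan-leukocyte marker, was below it. Gene by gene, the fibroblast markers had median log2 ratios against control of −0.49 with S100a8 (4 of 6 at least 1.2-fold lower) and −0.17 with S100a9 (2 of 6), with Pdgfrb lowest at −0.92 and −0.76 and Dcn at −0.92 and −0.28. The 4 immune markers had medians of 0.47 and 0.38 (3 and 2 of 4 at least 1.2-fold higher), with the macrophage marker Cd68 at 0.63 and 0.53. Cd3e, with the largest signals of the 4, had 0.15 with S100a8 and went the other way with S100a9, at −0.16. Of all compared genes, 11.2% with S100a8 and 7.84% with S100a9 were at least 1.2-fold lower, and 13.8% and 6.08% higher. Of 3 endothelial markers 1 was above the floor (summed signals of 219, 192 and 196), and of 4 muscle markers 2 were (489.9, 439.9 and 436). Dim genes were shifted upwards on the S100a8 array, with a median log2 ratio against control of 0.14 in the dimmest quartile of compared genes and −0.0047 in the brightest. The ratio of 3′ to 5′ probe set signals, which rises as RNA degrades, was 1.65 after S100a8, 1.56 after S100a9 and 1.44 in control cells for Actb, and 1.007, 1.03 and 0.961 for Gapdh, so it was lowest on the control array for both genes. The part of these differences in the results was not tested. In RNA of whole cultures, fewer cells of a type and less RNA per cell cannot be told apart.

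Few members differed by 1.2-fold or more, a log2 ratio of 0.26 used here as a descriptive size. With S100a8, 2 members were at least 1.2-fold above control (2.63% of 76) and 1 was at least 1.2-fold below (1.32%), where 13.8% and 11.2% of all compared genes were. With S100a9, 2 members were above (2.63%) and 0 below, where 6.08% and 7.84% of all compared genes were. Between the proteins, 0 members were at least 1.2-fold higher with S100a9 than with S100a8 and 1 was lower (1.32%), against 4.27% and 10.8% of all compared genes. Since most members are bright and bright genes vary less, the brightest quartile is the closer background. There 3.41% of genes were above and 8.01% below control with S100a8, 2.15% and 4.09% with S100a9, and 1.04% and 1.47% between the proteins. Within that quartile, 1 of 69 members was above and 0 below by this size in each comparison with control, and 0 differed between the proteins. The shares of members were thus below those of all compared genes in every one of these counts.

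**Figure D1:**
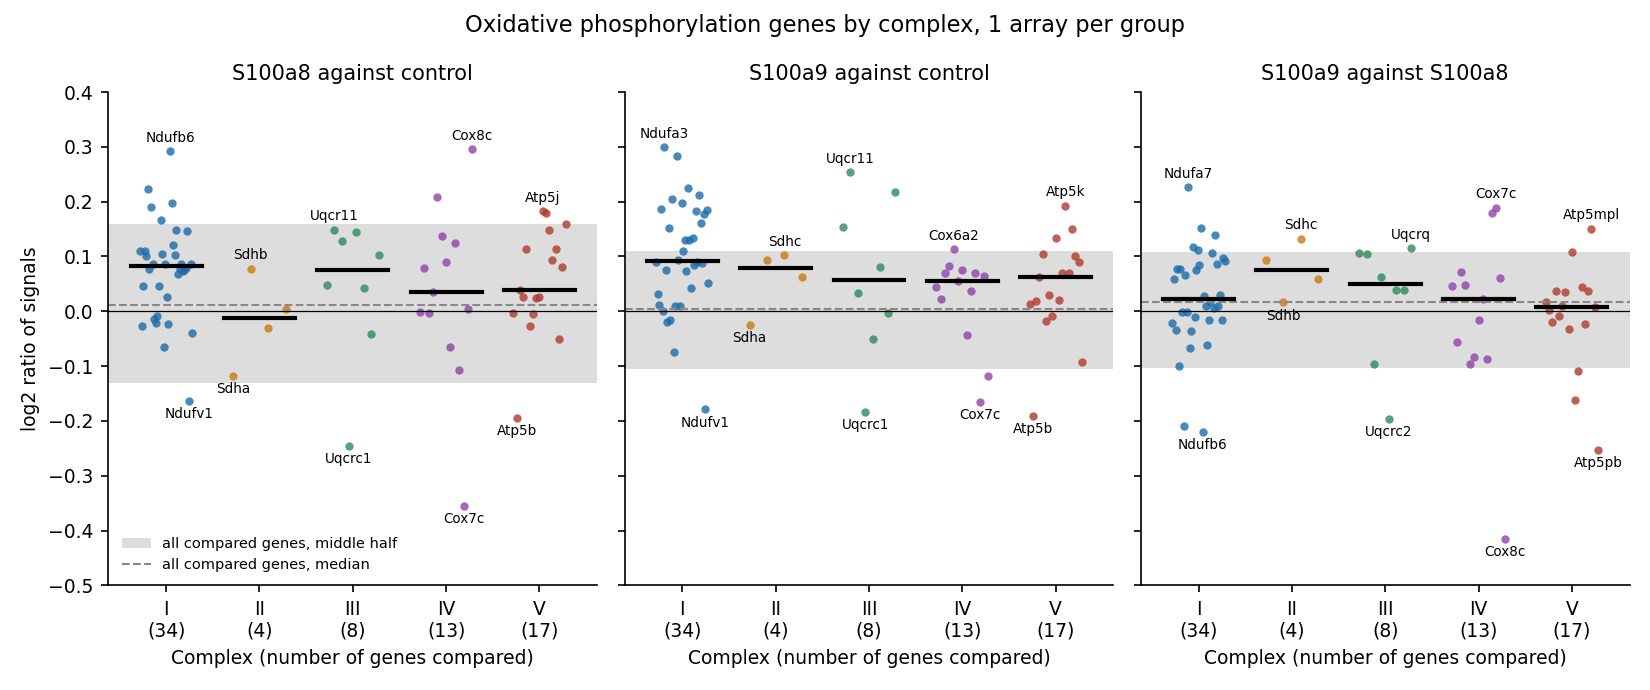
Log2 ratio of signals (vertical axis) of each compared gene (points) by complex, for each protein against control and for the proteins against each other, each from 1 array per group. Black bars are medians of the complex, the grey band spans the interquartile range of all 11138 compared genes and the dashed line is their median; nearly all members lie within ±0.3, most complexes have medians above 0 against control with the signals as deposited and below 0 with poly-A centring, and the lowest and highest gene of each complex is named.

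Among complexes, complex I, the NADH dehydrogenase, had the highest median with both proteins, 0.082 with S100a8 and 0.09 with S100a9. With S100a8 it lay only just above complex III. An alternative setting left out a list of tissue-restricted isoforms and names counted as non-core, which also held the c-ring genes Atp5g1, Atp5g2 and Atp5g3. Without these c-ring genes, the only complex V genes of that list on the array, complex V had 0.087 with S100a8. The order of the complexes with S100a8 therefore depends on the genes counted. Of the 34 complex I genes, 26 were above control with S100a8 and 30 with S100a9. Complex III had medians of 0.075 and 0.06 (6 and 5 of 8 genes above control), complex IV 0.04 and 0.06 (8 and 10 of 13) and complex V 0.04 and 0.06 (12 and 13 of 17). Complex II had −0.013 with S100a8 and 0.08 with S100a9 (2 and 3 of 4). Within a complex, the SD of the ratios over genes was 0.08 to 0.16 with S100a8 and 0.06 to 0.15 with S100a9. All of these medians except that of complex II with S100a8, which was already below control, turned negative with poly-A centring, and so did the medians of the subunit classes and related gene lists given below that lie above control.

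The promoters of the members at the ends of the distribution are shown for what they hold of the motifs that regulate this gene class. NRF1 and the ETS factor GABP are activators of nuclear respiratory chain genes, YY1 is a further described regulator, and the GC box is bound by Sp1-type factors. Each line gives the 250 bases before the start of the gene, 5′ to 3′ on the gene's strand, from RefSeq (GRCm38.p6), with motif matches in capitals. Ndufa3 (chr7:3617123-3617372, plus strand) and Uqcr11 (chr10:80406822-80407071, minus strand) had the highest ratios of complexes I and III with S100a9, Atp5k (chr5:108434400-108434649, minus strand) that of complex V, and Atp5b (chr10:128083057-128083306, plus strand) and Uqcrc1 (chr9:108936398-108936647, plus strand) were the lowest of their complexes with both proteins.
Ndufa3: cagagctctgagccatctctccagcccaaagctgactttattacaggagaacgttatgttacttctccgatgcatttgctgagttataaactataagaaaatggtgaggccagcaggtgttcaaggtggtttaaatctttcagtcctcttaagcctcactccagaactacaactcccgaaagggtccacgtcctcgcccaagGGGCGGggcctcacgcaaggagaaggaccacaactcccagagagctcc
Uqcr11: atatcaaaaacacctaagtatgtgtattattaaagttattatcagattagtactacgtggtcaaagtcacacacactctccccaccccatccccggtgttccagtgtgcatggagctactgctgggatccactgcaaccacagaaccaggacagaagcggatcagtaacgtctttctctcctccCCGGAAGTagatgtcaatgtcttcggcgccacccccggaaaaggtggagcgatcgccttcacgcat
Atp5k: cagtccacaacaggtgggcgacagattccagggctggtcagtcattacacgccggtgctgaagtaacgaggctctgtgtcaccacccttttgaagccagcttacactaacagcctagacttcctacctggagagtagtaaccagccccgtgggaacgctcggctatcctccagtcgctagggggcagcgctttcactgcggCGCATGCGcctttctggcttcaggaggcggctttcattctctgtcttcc
Atp5b: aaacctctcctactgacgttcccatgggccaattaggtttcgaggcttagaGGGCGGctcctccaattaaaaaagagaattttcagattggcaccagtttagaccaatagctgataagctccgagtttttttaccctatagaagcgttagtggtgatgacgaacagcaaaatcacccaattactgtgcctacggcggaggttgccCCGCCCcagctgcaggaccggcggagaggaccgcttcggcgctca
Uqcrc1: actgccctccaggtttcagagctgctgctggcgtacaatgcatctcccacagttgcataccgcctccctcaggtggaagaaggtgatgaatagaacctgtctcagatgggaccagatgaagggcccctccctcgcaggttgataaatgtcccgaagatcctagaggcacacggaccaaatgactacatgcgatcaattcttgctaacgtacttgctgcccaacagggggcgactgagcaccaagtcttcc

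The Atp5k promoter holds the NRF1 core CGCATGCG, beginning 49 bases before the start, and the Uqcr11 promoter the ETS motif CCGGAAGT, beginning 66 bases before it. The Ndufa3 promoter has 1 GC box (GGGCGG, or CCGCCC on the other strand), 48 bases before the start, and the Atp5b promoter has 2, at 199 and 45 bases. The Uqcrc1 window holds none of the letters searched, which were these 3 motifs and AAGATGGC for YY1, on both strands; none of the matches shown overlap. RefSeq promoters were at hand for 66 members, 71 promoters in all. The NRF1 core was in 6 of the 71 (8.45%), against 1.55% of all 32851 mouse promoters of the same length. The ETS motif was in 3 (4.23% against 2.88%), the YY1 motif in 1 (1.41% against 1.56%) and the GC box in 25 (35.2% against 32.7%).

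The 6 compared members with the NRF1 core were Atp5g2, Atp5j, Atp5k, Atp5l, Cox6a1 and Ndufa8. Their median log2 ratio was 0.06 with S100a8 and 0.05 with S100a9, and the 56 compared members without it had 0.07 and 0.08. The 3 with the ETS motif, Atp5h, Uqcr11 and Uqcrh, had 0.03 and 0.13, against 0.07 and 0.07 in the other 59. The 22 members with a GC box had 0.09 and 0.08, against 0.04 and 0.07 in the 40 without one.

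In complex I, the subunits that carry out electron transfer were mostly slightly above control. Of the 6 nuclear-encoded core subunits present, those shared with the bacterial enzyme (Ndufs1, Ndufs3, Ndufs7, Ndufs8, Ndufv1 and Ndufv2), 5 were above control with both proteins. Their median was 0.08 with S100a8 and 0.13 with S100a9. Ndufs8, an iron-sulphur subunit near the quinone site, had signals of 2113 after S100a8, 2158 after S100a9 and 1908 in control cells, which are log2 ratios of 0.15 and 0.18. Ndufv2, an iron-sulphur subunit of the electron input module, had 3305 after S100a8, 3538 after S100a9 and 3114 in control cells (0.09 and 0.18). Both genes were lowest on the control array.

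Ndufv1, which binds NADH and the flavin, was the core subunit with signals below control. It had 1584 after S100a8, 1567 after S100a9 and 1774 in control cells, log2 ratios of −0.16 and −0.18. Its other probe sets lay closer to control, at −0.06 and −0.02 for one and 0.006 and −0.0088 for the other. The size of the difference therefore rests on 1 of its 3 probe sets, although all 3 were below control with S100a9.

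The supernumerary subunits of complex I, which surround the core and are needed for its assembly and stability, included the highest member above control with S100a9, Ndufa3. Of 26 compared, 19 were above control with S100a8 and 24 with S100a9, with medians of 0.08 and 0.10. Ndufa3, a small membrane-arm subunit, had 4363 after S100a8, 4600.0 after S100a9 and 3739 in control cells. Its log2 ratios were 0.22 with S100a8 and 0.30 with S100a9, and the control was the lowest of the 3 arrays. A probe set of Ndufa3 without a shared ending gave 3536 after S100a8, 3739 after S100a9 and 2706 in control cells, log2 ratios of 0.39 and 0.47, and the third, close to the floor, gave 0.04 and 0.28. All 3 probe sets of Ndufa3 were thus above control with both proteins.

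The other supernumerary subunits with a 1.2-fold difference were Ndufb1 and Ndufb6, both of the membrane arm. Ndufb1 had a dim signal, 292 after S100a8, 316 after S100a9 and 259.9 in control cells, and log2 ratios of 0.17 and 0.28. Ndufb6 had 3192 after S100a8, 2741 after S100a9 and 2606 in control cells, log2 ratios of 0.29 with S100a8 and 0.07 with S100a9. The S100a8 array stood apart for Ndufb6, and its second probe set gave 1380.0 after S100a8, 984 after S100a9 and 999 in control cells (0.47 and −0.02). Ndufb7, also of the membrane arm, had 2209.8 after S100a8, 2252 after S100a9 and 1927 in control cells (0.20 and 0.22), with a second probe set at 0.15 and 0.23.

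For some accessory subunits of complex I the representing probe set was above control with S100a9 and close to it with S100a8. Ndufa7 had 4275 after S100a8, 4999.9 after S100a9 and 4339 in control cells, log2 ratios of −0.02 and 0.20. All 5 of its probe sets were higher with S100a9 than in the control, by 0.14 to 0.24, and 3 of the 5 were higher with S100a8, by 0.10 to 0.12. Ndufb5 had 3304 after S100a8, 3672 after S100a9 and 3356 in control cells (−0.02 and 0.13), and its second probe set gave the other order, 0.10 and 0.02. The lowest accessory subunits were Ndufb11 (5442 after S100a8, 5735 after S100a9 and 5697 in control cells) with S100a8 and Ndufa8 (2967 after S100a8, 2834 after S100a9 and 2985 in control cells) with S100a9, at log2 ratios of −0.07 and −0.08. The brightest complex I probe sets were those of Ndufa4 (8649 after S100a8, 8639 after S100a9 and 8197 in control cells) and Ndufa1 (8252 after S100a8, 8135 after S100a9 and 7642 in control cells), at 0.08 and 0.08 and at 0.11 and 0.09 on the log2 scale. Ndufa4 keeps its complex I name although its protein is now assigned to complex IV. Its paralogue Ndufa4l2, known as a hypoxia-induced gene, was dim, with 143 after S100a8, 124 after S100a9 and 125 in control cells.

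**Figure D2:**
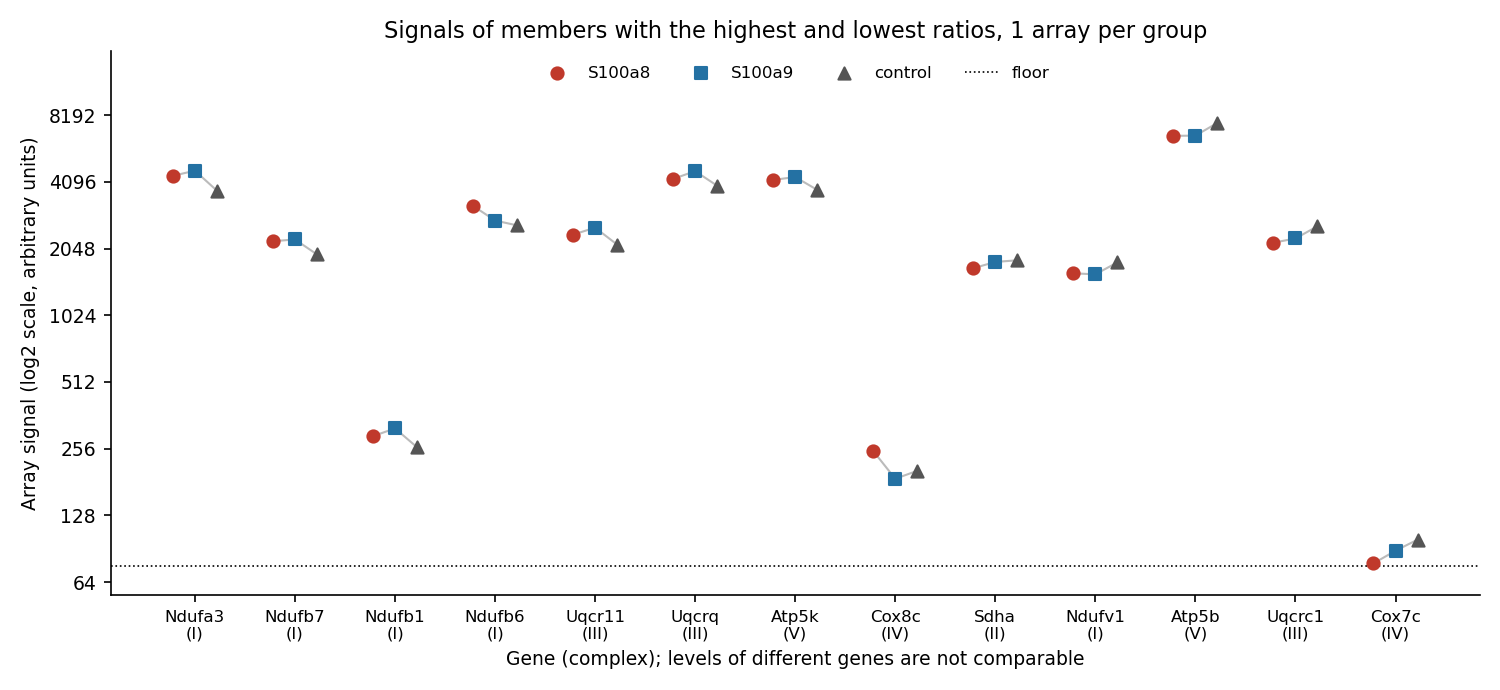
Array signals (vertical axis, log2 scale, arbitrary units) of 13 members with the highest or lowest ratios on the S100a8, S100a9 and control arrays, 1 array each, with the floor as a dotted line. Ndufa3, Ndufb7, Ndufb1, Uqcr11, Uqcrq and Atp5k have their lowest point on the control array, Sdha, Ndufv1, Atp5b, Uqcrc1 and Cox7c their highest, and Ndufb6 and Cox8c are highest on the S100a8 array; levels of different genes are not comparable.

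Complex II, succinate dehydrogenase, is also an enzyme of the TCA cycle and is encoded wholly in the nucleus. Sdha, the flavin-containing catalytic subunit, had 1670.1 after S100a8, 1782 after S100a9 and 1813 in control cells, log2 ratios of −0.12 and −0.02, and a second probe set gave −0.11 and −0.10. Both probe sets were highest on the control array. Sdhb, the iron-sulphur subunit, had 4204 after S100a8, 4252 after S100a9 and 3983 in control cells (0.08 and 0.09), and was lowest in the control.

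The membrane anchors of complex II gave values that depend on the probe set. Sdhc had 747 after S100a8, 819 after S100a9 and 762 in control cells (−0.03 and 0.10), and its other probe set 612 after S100a8, 544 after S100a9 and 589 in control cells (0.06 and −0.11), so its S100a9 value has opposite signs. Sdhd had 2355 after S100a8, 2452 after S100a9 and 2346 in control cells (0.005 and 0.06). A much dimmer Sdhd probe set gave 239.7 after S100a8, 139.8 after S100a9 and 125 in control cells, log2 ratios of 0.93 and 0.16, the widest gap within any member gene with S100a8. Both Sdhd probe sets were thus above control with both proteins, by unequal amounts, while those of Sdhc opposed each other.

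In complex III, the cytochrome bc1 complex, a core protein was below control with both proteins while most small subunits were above it. Uqcrc1, a core protein of the matrix side, had 2178 after S100a8, 2274 after S100a9 and 2583 in control cells, log2 ratios of −0.25 and −0.18, and was highest in the control. Its partner Uqcrc2 had 2534 after S100a8, 2213 after S100a9 and 2291 in control cells (0.15 and −0.05), with a second probe set at 0.06 and 0.04. Uqcrfs1, the Rieske iron-sulphur protein, had log2 ratios of 0.04 and 0.08.

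The 5 small subunits of complex III had medians of 0.10 with S100a8 and 0.15 with S100a9, and 4 of 5 were above control with each. Uqcr11 had 2367 after S100a8, 2545 after S100a9 and 2135 in control cells, log2 ratios of 0.15 and 0.25. Uqcrq had 4226 after S100a8, 4578 after S100a9 and 3935 in control cells (0.10 and 0.22). Near the floor, a probe set of Uqcrq gave 0.18 and 0, and another gave −0.21 and −0.19. Uqcr10 had 3172 after S100a8, 3415 after S100a9 and 3068 in control cells (0.05 and 0.15). At these probe sets the genes were lowest on the control array and highest with S100a9, but a second bright probe set of Uqcr10 gave −0.01 and 0.07 and was lowest with S100a8. Uqcrb, which helps form the quinone site, had 11930.3 after S100a8, 11164 after S100a9 and 10915 in control cells (0.13 and 0.03), and was highest with S100a8, whereas its second probe set gave 0.02 and 0.04 and was highest with S100a9. Uqcrh, the hinge protein that contacts cytochrome c1, had 4619 after S100a8, 4742 after S100a9 and 4751 in control cells (−0.04 and −0.0026). A second bright probe set of Uqcrh gave −0.09 and 0.04 and was highest with S100a9, so its sign with S100a9 depends on the probe set.

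Complex IV, cytochrome c oxidase, has nuclear subunits around a mitochondrially encoded core. The 9 broadly used subunits compared had medians of 0.04 with S100a8 and 0.06 with S100a9, with 6 and 8 of 9 above control. Cox6a1 had 14107 after S100a8, 14576 after S100a9 and 13766 in control cells (0.04 and 0.08), and Cox5b, which binds zinc, 9288 after S100a8, 9760.3 after S100a9 and 9304 in control cells (−0.0024 and 0.07). These ratios lie within the spread between probe sets.

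Cox5a and Cox6c were higher on the S100a8 array in all their probe sets, but by unequal amounts. The brightest Cox5a probe set gave 8364 after S100a8, 8046 after S100a9 and 7923 in control cells, a log2 ratio of 0.08 with S100a8, and the others gave 0.37 and 0.30. With S100a9 the same probe sets gave 0.02, 0.08 and 0.04. For Cox6c, the ratios with S100a8 were 0.09 and 0.32, and with S100a9 0.07 and 0.10. Both genes were named after their probe set values were seen.

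The members of complex IV with 1.2-fold differences were dim. Cox7c had 77.8 after S100a8, 88.6 after S100a9 and 99.4 in control cells, a log2 ratio of −0.35 with S100a8 and −0.17 with S100a9, at a probe set near the floor; it is a broadly used subunit, and no brighter probe set carries its symbol alone. Cox8c, an isoform known from testis, had 249.7 after S100a8, 187 after S100a9 and 203 in control cells, log2 ratios of 0.30 and −0.12. The muscle isoforms Cox6a2 (161 after S100a8, 151 after S100a9 and 139.6 in control cells) and Cox7a1 (72.8 after S100a8, 77.1 after S100a9 and 79.5 in control cells) were also dim, and Cox4i2, Cox6b2, Cox7b2 and Cox8b were below the floor. Cox7a2l, a factor in supercomplex formation rather than an isoform of the Cox7a subunit, had 4748 after S100a8, 5373 after S100a9 and 5116 in control cells (−0.11 and 0.07), and its other probe sets gave 0.04 and 0.06 with S100a8 and 0.10 and 0.17 with S100a9.

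Complex V, the ATP synthase, had genes on both sides of control in its catalytic and rotor parts. The 5 genes of the F1 part had medians of 0.03 with S100a8 and 0.02 with S100a9, and 3 and 4 of them were above control. Atp5b, the catalytic β subunit, had 6609 after S100a8, 6622 after S100a9 and 7560.3 in control cells, log2 ratios of −0.19 and −0.19. It was highest in the control and is measured by a single probe set. Atp5a1, the α subunit, had 5919 after S100a8, 5988 after S100a9 and 5932 in control cells (−0.0033 and 0.01), but another bright probe set of it gave 4981 after S100a8, 5409 after S100a9 and 6028 in control cells (−0.28 and −0.16). Atp5c1, the γ subunit of the central stalk, had 7613 after S100a8, 7509 after S100a9 and 7413 in control cells (0.04 and 0.02), and a dim probe set of it gave 133 after S100a8, 139 after S100a9 and 207 in control cells (−0.64 and −0.57). The small F1 subunits Atp5e (ε) and Atp5d (δ) had log2 ratios of 0.11 and 0.11 and of 0.03 and 0.06, with a second Atp5d probe set at −0.01 and −0.0044. The c-ring genes Atp5g1, Atp5g2 and Atp5g3, which encode the same mature protein, had log2 ratios between −0.03 and 0.03 in both comparisons at their brightest probe sets. A dim second probe set of Atp5g2 gave −0.26 and −0.20.

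The peripheral stalk and the small membrane subunits of complex V were mostly above control. The 5 small membrane subunits had medians of 0.11 with S100a8 and 0.10 with S100a9, and 4 and 5 of 5 were above control. Atp5k, the e subunit that takes part in dimer formation, had 4180.0 after S100a8, 4308 after S100a9 and 3769.6 in control cells, log2 ratios of 0.15 and 0.19. Its other probe sets gave 0.17 and 0.22 with S100a8 and 0.26 and 0.27 with S100a9, so all 3 were lowest in the control. Atp5md had 6702 after S100a8, 6872 after S100a9 and 6193 in control cells (0.11 and 0.15) and was likewise lowest in the control. Atp5mpl had 4521 after S100a8, 5019 after S100a9 and 4680.3 in control cells (−0.05 and 0.10).

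All 4 stalk genes were above control with S100a8 (median 0.12) and 3 of 4 with S100a9 (median 0.05). Atp5j, known as coupling factor 6, had 5077 after S100a8, 4537 after S100a9 and 4475 in control cells (0.18 and 0.02). Atp5pb, the b subunit, had 4712 after S100a8, 3956 after S100a9 and 4219 in control cells (0.16 and −0.09). A second bright probe set of Atp5pb gave 0.11 and 0.06, so its sign with S100a9 depends on the probe set. Atp5j and Atp5pb were both highest with S100a8. Atp5h, the d subunit, was highest with S100a9, with 4669 after S100a8, 5032 after S100a9 and 4587 in control cells (0.03 and 0.13), whereas its second probe set was highest with S100a8 (0.15 and 0.0056).

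Set directly against each other, the proteins gave nearly the same signals for most members. The median log2 ratio of S100a9 against S100a8 was 0.02, and 48 of 76 genes were higher with S100a9, where the median of all compared genes was 0.018 and that of the brightest quartile 0.03. Complex medians were 0.02 for complex I, 0.08 for II, 0.05 for III, 0.02 for IV and 0.0086 for V. The members furthest towards S100a9 were Ndufa7 (0.23), Cox7c (0.19) and Cox7a2l (0.18). Those furthest towards S100a8 were Cox8c (−0.41), Atp5pb (−0.25), Ndufb6 (−0.22), Ndufa4l2 (−0.21) and Uqcrc2 (−0.20). For Atp5pb and Uqcrc2 a second probe set gave −0.05 and −0.02, close to 0. With arrays centred on the median of the compared genes, the member median was −0.0060, so no order of the proteins can be read from it.

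Probe sets of 1 gene read the same RNA on the same array, so their agreement shows consistency of measurement and not the spread between cultures. Of the 145 member probe sets above the floor, 106 were above control with S100a8 and 115 with S100a9. Among the 45 genes with several, 31 had all probe sets on one side of control with S100a8, 26 above and 5 below. With S100a9, 31 did too, 29 above and 2 below. Probe sets of 1 gene went opposite ways by at least 0.3 for Atp5a1, Atp5c1 and Uqcrq with S100a8, and for Atp5c1, Atp5j2, Ndufb2 and Uqcrq with S100a9. Between the proteins they did for Ndufb2, Ndufs4, Sdhc and Sdhd.

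**Figure D3:**
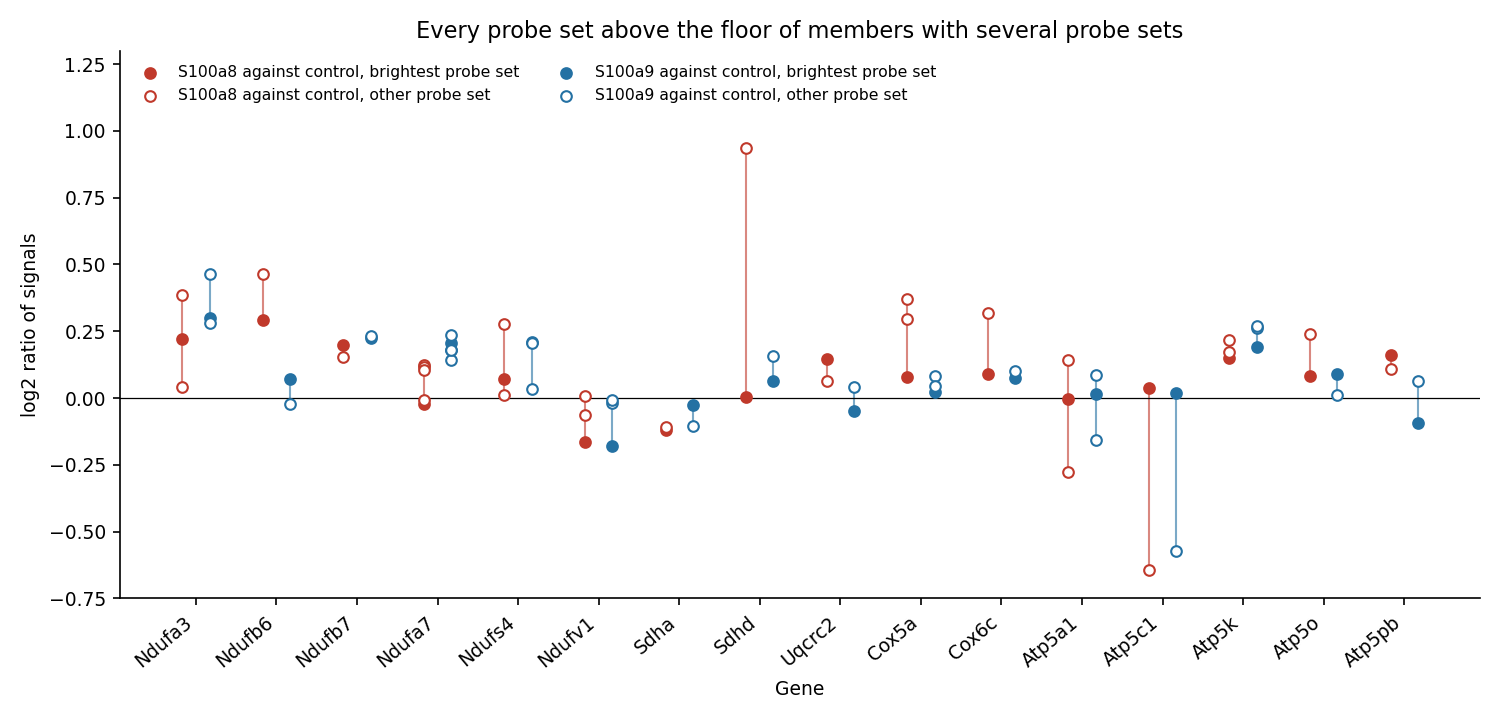
Log2 ratio of signals (vertical axis) of every probe set above the floor for 16 members with several probe sets, with S100a8 against control in red and S100a9 against control in blue; filled points are the brightest probe set of the gene, open points its others, and lines join them. The probe sets of Ndufa3, Ndufb7 and Atp5k are all above 0, while those of Sdhd, Atp5a1, Atp5c1 and Cox5a are spread widely.

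Genes that build, feed or regulate the complexes were compared in the same way. Of 42 assembly factors compared, which help build the complexes without staying in them, 31 were above control with S100a8 and 32 with S100a9, with medians of 0.11 and 0.12. At least 1.2-fold above control were 4 with S100a8 and 6 with S100a9, and 3 and 1 were below by that size. The shares above were 9.52% and 14.3%, against 13.8% and 6.08% of all compared genes, and those below 7.14% and 2.38%, against 11.2% and 7.84%. Timmdc1, a complex I assembly factor, had 246 after S100a8, 308 after S100a9 and 219 in control cells (0.17 and 0.49), and Tmem126b, of the same pathway, 89.9 after S100a8, 133 after S100a9 and 136 in control cells (−0.60 and −0.03). Atpaf1, which helps assemble the F1 part of ATP synthase, had 237 after S100a8, 227 after S100a9 and 191 in control cells (0.31 and 0.25). Cox15, which makes haem a for complex IV, had 480.2 after S100a8, 487 after S100a9 and 602 in control cells (−0.33 and −0.30). The assembly factors therefore held members on both sides of control within 1 array.

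The medians of the remaining lists lay nearer to those of all compared genes, with protein import as the exception. The 16 genes of mitochondrial protein import had medians of 0.11 and 0.07, and 12 and 13 of them were above control. Timm8b, a small import chaperone, had 1759.7 after S100a8, 1964 after S100a9 and 1520.4 in control cells (0.21 and 0.37), and Tomm40, the outer membrane pore, 1209 after S100a8, 1299 after S100a9 and 1343 in control cells (−0.15 and −0.05). The 16 TCA cycle genes had medians of 0.04 and 0.04, with 13 and 11 above control, and with Mdh2, the mitochondrial malate dehydrogenase, at 0.28 and 0.13 and Dld, the lipoamide dehydrogenase, at −0.24 and −0.09. The 17 regulators of mitochondrial gene expression had 0.03 and 0.03, with 10 and 12 above control. Polg, the catalytic subunit of mitochondrial DNA polymerase, had 286 after S100a8, 299 after S100a9 and 369.9 in control cells (−0.37 and −0.31), and its accessory subunit Polg2 237 after S100a8, 232 after S100a9 and 197 in control cells (0.27 and 0.24). The 14 carriers and exchange proteins had 0.02 and 0.0074, and 8 and 7 were above control. Their ends were Dhodh, which links pyrimidine synthesis to ubiquinone (0.22 and 0.31), and Etfdh, which passes electrons of fatty acid oxidation to it (−0.18 and −0.07).

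**Figure D4:**
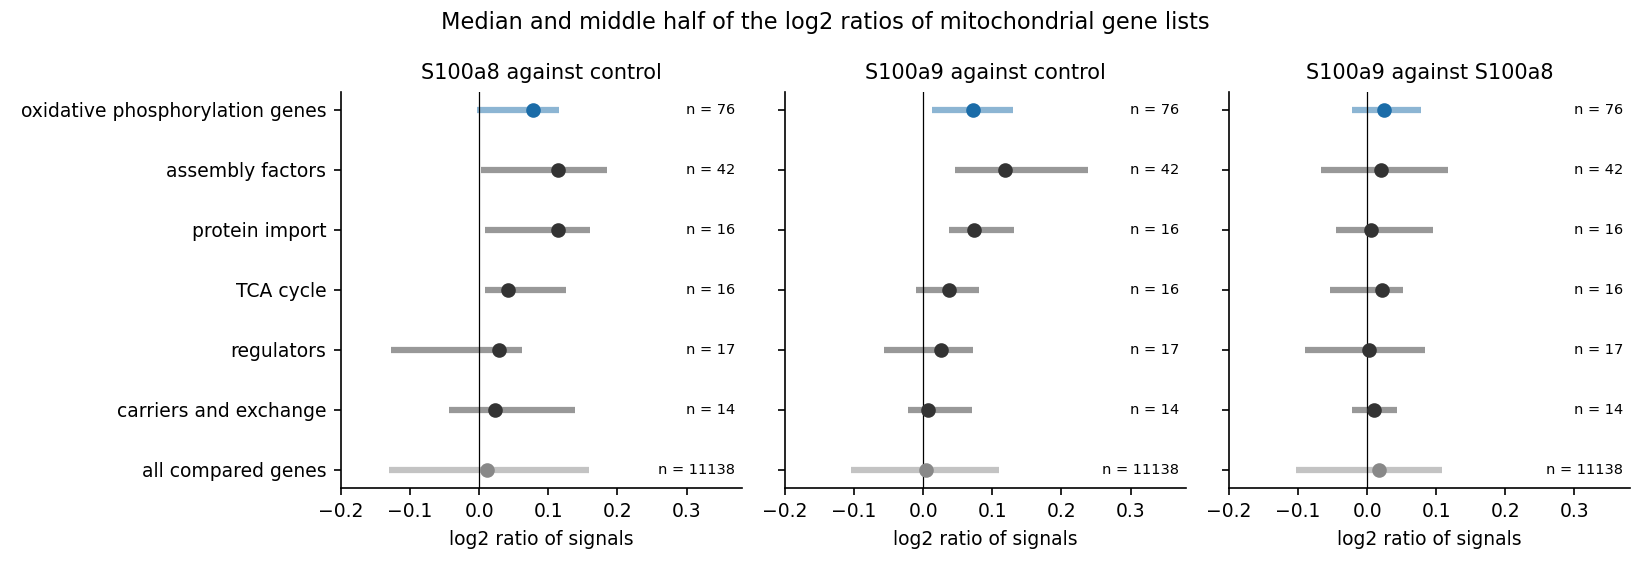
Median (points) and interquartile range (bars) of the log2 ratios (horizontal axis) of the oxidative phosphorylation genes, 5 lists of related mitochondrial genes and all compared genes, for each protein against control and for the proteins against each other, with the number of genes compared. Assembly factors and protein import genes sit beside the oxidative phosphorylation genes above 0 against control (below 0 with poly-A centring), and no list stands apart between the proteins.

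Of the subunits encoded by mitochondrial DNA, ND5 of complex I was the one measured under a single symbol. It had 10031 after S100a8, 8768 after S100a9 and 12240.5 in control cells, log2 ratios of −0.29 with S100a8 and −0.48 with S100a9, and was highest in the control. The ratio stayed below 0 under each of the 4 other scalings, from −0.41 to −0.24 with S100a8 and from −0.76 to −0.47 with S100a9. The nuclear genes of complex I had medians above control at the deposited scale and below it with poly-A centring, and ND5 was below them in each.

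The height of the member medians above or below control depended on the scaling of the arrays, and their distance from all compared genes depended on it less. Centred on the poly-A spike-ins, all compared genes had medians of −0.11 with S100a8 and −0.27 with S100a9, and the members −0.05 and −0.21. Members were then above control in 18 and 2 of 76 cases. Over the 12 alternative settings, the member median exceeded the median of all compared genes by 0.04 to 0.09 with S100a8 and by 0.05 to 0.07 with S100a9. Between the proteins the same distance ran from −0.0058 to 0.03.

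**Figure D5:**
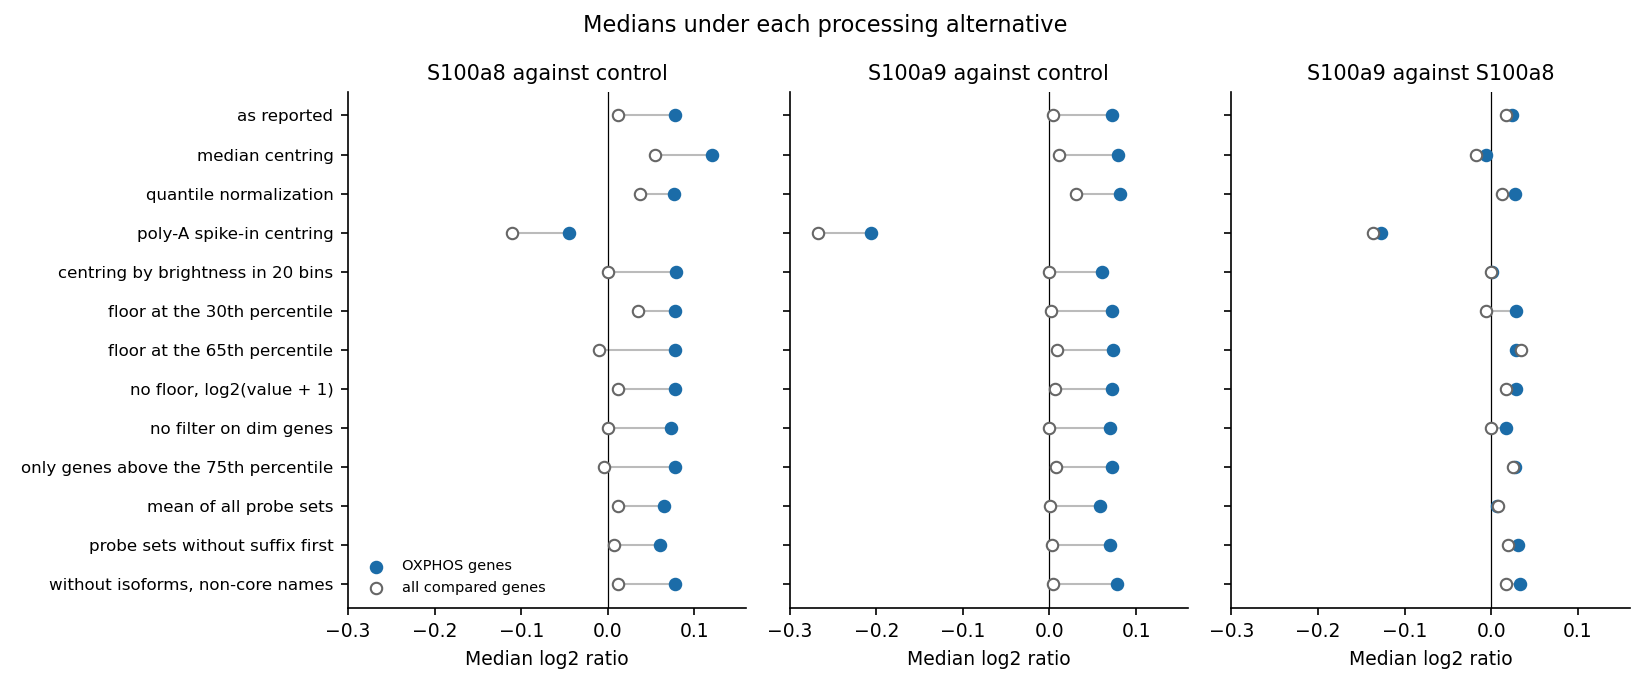
Median log2 ratio (horizontal axis) of the oxidative phosphorylation genes (filled) and of all compared genes (open) as reported and under 12 alternative settings (rows), for each protein against control and for the proteins against each other. Both medians move to the left of 0 with poly-A spike-in centring, and against control the filled point lies to the right of the open one in every row.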

How the data were processed

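The deposited values are array intensities on a linear scale, called signals here, for 45101 probe sets on 3 arrays. Per the submitters' processing notes, the authors computed them with MAS5. Its version is not given in the sources used here, nor is its scaling target, and detection calls were not used. On a common scale, a change of total RNA per cell cannot be seen. Having 1 array per group limits the precision of every value.

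Genes were named from the platform annotation, which gave 34945 probe sets a single symbol and 932 several, and did not list 9160. All 81 members matched RefSeq (GRCm38.p6), with 0 symbols changed. Signals under the floor (the 50th percentile, 76.0) were raised to it, log2 was taken, the brightest probe set represented a gene, and 11138 genes were compared as differences of log2 values, with 1.2-fold as a descriptive size. Poly-A spike-ins were the dap, lys, phe and thr probe sets.

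Named genes were, per complex, the 2 brightest, the 2 highest and 2 lowest ratios per comparison, all Sdh genes, those at least 1.2-fold apart, the tissue-restricted isoforms and the genes with opposing probe sets, plus the ends of each list. Ndufs8, Ndufv2, Ndufb7, Uqcrfs1, Cox5a, Cox6c, Ndufs5, Atp5d, Atp5e and Atp5o were added after their values were seen. The grouping of subunits by role was also added then. Members and lists were chosen with earlier results of these data known. The computation (Python 3.11.15, pandas 2.3.3, numpy 2.4.6) was tested on simulated data, with changes much larger than the member medians reported here. Alternatives were other scalings, floors, filters, probe set choices and a 1.5-fold size.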

Additional observations from a re-analysis of the deposited data

How the results depend on the processing

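Over the 12 alternative settings the member median against control was above 0 in all but poly-A centring. There it was −0.045 with S100a8 (complexes I to V at −0.041, −0.14, −0.048, −0.088 and −0.084) and −0.21 with S100a9 (−0.19, −0.20, −0.22, −0.21 and −0.22). Between the proteins, S100a9 against S100a8, it was −0.13 (−0.13, −0.080, −0.11, −0.11 and −0.15). With that centring 0 members were at least 1.2-fold higher and 4 lower with S100a8, 0 and 19 with S100a9, and 7 were lower between the proteins. The median over all compared genes moved by a like amount, and the cause of the spike-in difference was not tested. Between the proteins, median centring gave −0.0060 for the members, −0.013 for complex I and −0.026 for complex V, with 2 members at least 1.2-fold lower. Centring by brightness gave −0.00096 for complex I and −0.014 for complex V, with 1 member higher and 2 lower. Complex II with S100a8 changed sign to 0.030 (median centring), 0.0082 (quantile normalization), 0.0050 (only genes above the 75th percentile) and 0.045 (all probe sets of a gene averaged), and that averaging gave −0.0013 between the proteins. Complex III with S100a8 was 0.031 when probe sets were averaged and 0.018 with probe sets without a suffix first. Complex V with S100a8 was 0.087 in the setting without the isoforms and non-core names. In complex V that setting left out the c-ring genes Atp5g1, Atp5g2 and Atp5g3. The small counts of members at least 1.2-fold apart moved by 1 or 2 otherwise. Between the proteins, quantile normalization gave 1 higher, the mean of all probe sets 2 lower, suffix-free probe sets 2 lower, and 0 were lower without the isoforms and non-core names or with only bright genes. With S100a8, 0 were lower at a floor of the 65th percentile, 1 was higher and 0 lower with only bright genes, 2 were lower with suffix-free probe sets, and 1 was higher without the isoforms. With S100a9, 1 was higher with only bright genes, and 1 was lower with the mean of all probe sets or suffix-free ones. At 1.5-fold, 0 members differed in any comparison. Of 2043 values of named genes under alternatives, 169 moved by more than the spread between probe sets, and 0 of the values past 1.2-fold changed sign.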

Other observations

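Probe sets that carry the symbols of several genes were left out of the gene values, and 9 of them name a member series. A probe set shared by Ndufb4, Ndufb4b and Ndufb4c, supernumerary subunits of complex I and related copies, had signals of 2618 after S100a8, 2641 after S100a9 and 2352 in control cells, log2 ratios of 0.15 with S100a8 and 0.17 with S100a9. A second one gave 0.20 and 0.08. These shared probe sets were above the floor, while the single-symbol probe set of Ndufb4 was below it, and which of the copies they report cannot be told apart. A probe set shared by Ndufa11 and Ndufa11b had 1527 after S100a8, 1556 after S100a9 and 1363 in control cells (0.16 and 0.19), and 1 shared by Ndufs6 and Ndufs6b had 2525 after S100a8, 2764 after S100a9 and 2674 in control cells (−0.08 and 0.05). For Ndufs5, a probe set shared with a pseudogene gave 0.22 and −0.09, while the single-symbol probe set gave 0.07 and 0.16.

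Counted by probe set, 10 of the 145 member probe sets above the floor (6.90%) were at least 1.2-fold above control with S100a8, where 13.4% of 19410 probe sets with a single symbol were. They belong to Cox5a, Cox6a2, Cox6c, Cox8c, Ndufa3, Ndufb6, Ndufs4 and Sdhd. With S100a9 there were 6 (4.14% against 6.996%), of Atp5k, Cox6a2, Ndufa3 and Ndufb1. At least 1.2-fold below control were 3 with S100a8 (2.07% against 14.4%), of Atp5a1, Atp5c1 and Cox7c, and 2 with S100a9 (1.38% against 10.7%), of Atp5c1 and Atp5j2. Between the proteins, 5 member probe sets were at least 1.2-fold lower with S100a9 (3.45% against 10.4%), 1 each of Cox5a, Cox8c, Ndufb2, Ndufb6 and Sdhd, and 0 were higher (5.91% of all). For Atp5o, a stalk subunit of ATP synthase, the second probe set gave 1355 after S100a8, 1155 after S100a9 and 1147 in control cells, a log2 ratio of 0.24 with S100a8 and 0.01 with S100a9. The brightest Atp5o probe set gave 0.08 and 0.09. The second Ndufs4 probe set gave 585 after S100a8, 495 after S100a9 and 483 in control cells (0.28 and 0.03). The brightest Ndufs4 probe set gave the other order of the proteins, 0.07 and 0.21, and so did a dim one, 0.01 and 0.21. These genes were picked after their probe set values were seen.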
